A study of Mus musculus with 9 samples.

Results

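The genes described are 43 protein-coding genes of the nucleolus: RNA polymerase I with its factors, and the proteins that modify, cut and assemble ribosomal RNA into ribosomal subunits. They were chosen by function and found by their symbols in the deposited table of raw counts. All 43 were found among the 28111 genes of the table, and all 43 passed the filter on low counts that left 14817 genes for testing. The members were grouped by role into RNA polymerase I and its factors (6 genes), box C/D snoRNP proteins (4), box H/ACA snoRNP proteins (4), small subunit factors (12), large subunit factors (11) and general nucleolar proteins (6).

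RNA polymerase I copies the ribosomal DNA repeats into a long precursor RNA inside the nucleolus. Small nucleolar ribonucleoproteins (snoRNPs) then guide chemical marks onto it, box C/D particles placing ribose methyl groups and box H/ACA particles pseudouridines. Assembly factors fold and cut the precursor into the small and the large subunit. Growing lymphocytes are known to enlarge their nucleoli when they are activated, and MYC is a known activator of many of these genes.

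The libraries came from induced regulatory T (iTreg) cells, CD4 T cells driven in culture to express Foxp3, and the study set cells of Glut1 transgenic mice against control cells. The 4 Glut1Tg libraries (replicate 1 in mouse group 2, replicates 2, 3 and 4 in mouse group 1) carried a transgene for Glut1, the glucose transporter encoded by Slc2a1. The 5 WT libraries (replicates 2, 4 and 5 in mouse group 2, replicates 1 and 3 in mouse group 1) came from control mice, and the strain was C57BL/6J throughout. The labels name 2 mouse groups without saying what they are, and they give neither the promoter of the transgene, nor the culture conditions, nor whether each library is a separate animal. The p-values below therefore measure library-to-library spread, part or all of which may be technical.

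Total counts were 20881035 to 31196428 per library, and the members had 211 to 33443 counts each in any library. Slc2a1 averaged 373 ± 121 CPM (counts relative to TMM-scaled library totals) in Glut1Tg cells (SD, n = 4) and 42.1 ± 12.6 CPM in WT cells (SD, n = 5) (adjusted p = 0.000903, edgeR's quasi-likelihood test), all 4 Glut1Tg libraries being above all 5 WT libraries. The summed level of 8 T cell markers was 3268 to 4476 CPM in the Glut1Tg libraries and 3737 to 4176 CPM in the WT libraries, and Foxp3 was at 621 to 822 CPM in the Glut1Tg libraries and 814 to 1164 CPM in the WT libraries. The sum of 7 regulatory T cell markers, Foxp3 among them, was 5405 CPM in Glut1Tg replicate 1 and 2090 to 2658 CPM in the other Glut1Tg libraries. It was 5055 CPM in WT replicate 2 and 2534 to 3190 CPM in the other WT libraries. Il2ra made up 2959 CPM of the sum in Glut1Tg replicate 1 and 2386 CPM in WT replicate 2. Glut1Tg replicate 1 and WT replicate 2 lay apart from the other libraries on the first principal component (50.7% of the variance), and Glut1Tg replicate 3 on the second (20.4%). For genotype, the main counts, the role groups and most other lists are given with and without Glut1Tg replicate 1. Some are also given without Glut1Tg replicate 3. In bulk RNA, a change in the cells present cannot be told apart from a change in RNA per cell.

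Per kilobase of annotated exon, transcript levels of the members spanned a wide range in both genotypes. Npm1, encoding the abundant nucleolar chaperone nucleophosmin, stood first with 379 ± 87.1 CPM per kilobase in Glut1Tg cells (SD, n = 4) and 293 ± 40.5 CPM per kilobase in WT cells (SD, n = 5). Ncl, encoding nucleolin, an RNA-binding protein of the nucleolus, came next with 101 ± 17.5 CPM per kilobase in Glut1Tg cells and 79.3 ± 12.2 CPM per kilobase in WT cells. Below them the order was loose: of the 42 pairs of neighbours in the WT order, 40 had overlapping WT libraries, and the exceptions were Npm1 above Ncl and Ncl above Ubtf. The catalytic subunits of the polymerase were near the bottom, Polr1a with 3.72 ± 1.89 CPM per kilobase in Glut1Tg cells and 3.41 CPM per kilobase in WT cells, and Polr1b with 5.00 CPM per kilobase in Glut1Tg cells and 3.11 CPM per kilobase in WT cells. No member moved by more than 9 places between the order in Glut1Tg cells and the order in WT cells.

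**Figure D1:**
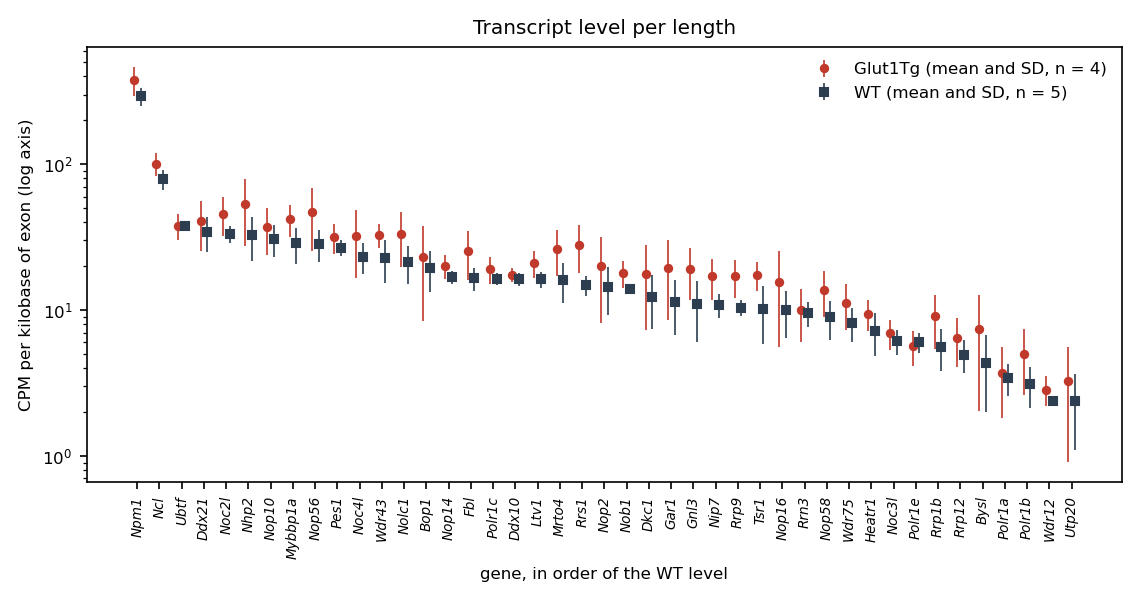
Mean level of each member in CPM per kilobase of exon (log axis, with SD), in the order of the WT level, for 4 Glut1Tg libraries (circles) and 5 WT libraries (squares). Npm1 at 379 in Glut1Tg and 293 in WT cells and Ncl at 101 in Glut1Tg and 79.3 in WT cells stand above the rest, and the SDs of most neighbours overlap.

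Between genotypes, every member had a fitted level above WT in Glut1Tg cells, and no member passed the test. The 43 fold changes ran from 1.06 (Ubtf, Polr1e) to 2.03 (Bysl), with a median log2 fold change of 0.54 against 0.02 over all genes tested. Of the members, 0 were called at an adjusted p under 0.05 (edgeR's quasi-likelihood test with mouse group as a term and Benjamini-Hochberg adjustment, adjusted p of 0.681 to 0.859), against a background of 0.00675% of genes called, which is Slc2a1 alone. DESeq2 and limma-voom also called 0 members. At an unadjusted p under 0.05, 21 members were above WT in Glut1Tg cells and 0 below (48.8% of members, against 4.5% of all genes higher and 1.5% lower). The counts were 22 with DESeq2 and 18 with limma-voom. A positive sign was found in 43 of 43 members and in 52.4% of all genes. Members of a pathway share the cells they are read from, so their common sign is not a count of independent observations.

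The common sign rested largely on Glut1Tg replicates 1 and 3. Every member was highest of the 9 libraries in Glut1Tg replicate 1 (29 members, 67.4%, against 22.6% of all genes) or in Glut1Tg replicate 3 (14 members, 32.6%, against 21.3%). Glut1Tg replicates 2 and 4 lay inside the range of the 5 WT libraries for 36 and for 31 members. Without Glut1Tg replicate 1 the median log2 fold change was 0.26, 34 members were positive and 1 had an unadjusted p under 0.05. Without Glut1Tg replicate 3 these values were 0.43, 43 and 7. By role, fits without Glut1Tg replicate 1 gave medians of -0.04 for RNA polymerase I and its factors, 0.54 for box C/D, 0.58 for box H/ACA, 0.15 for small subunit, 0.32 for large subunit and 0.20 for general nucleolar proteins. The 9 members then below WT were Polr1a, Polr1e, Rrn3, Ubtf, Rrp12, Utp20, Heatr1, Ddx10 and Noc3l. With both left out, the median was 0.029, 29 members were positive and 0 had an unadjusted p under 0.05. The fits by role and the fit without both libraries were added after the data were seen.

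**Figure D2:**
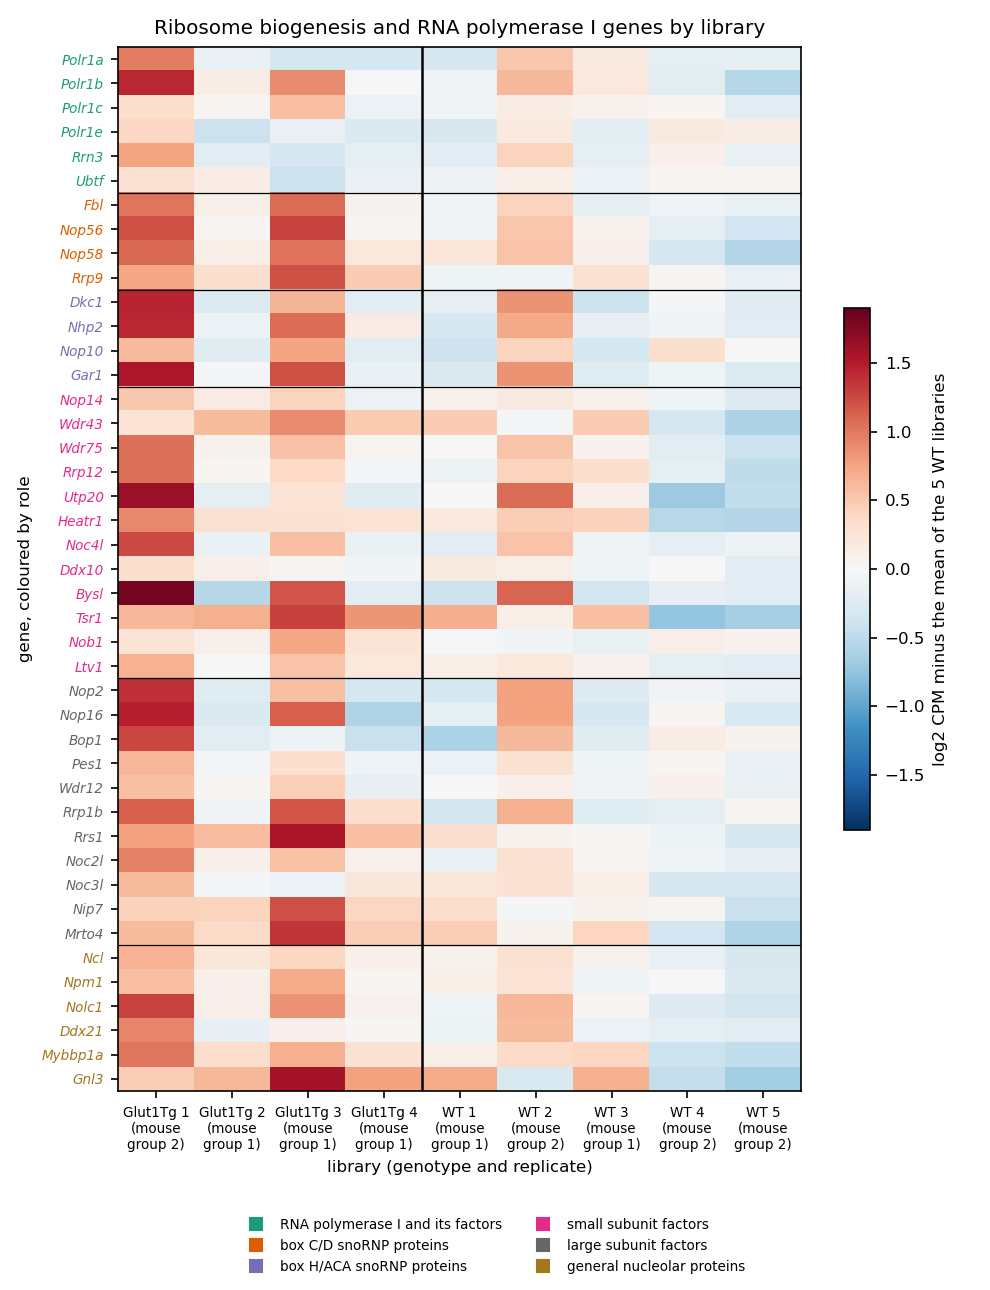
Level of each of the 43 members in each library, as log2 CPM minus the mean of the 5 WT libraries (red above, blue below), with rows grouped by role and columns by genotype, Glut1Tg left of WT. Glut1Tg replicates 1 and 3 are red in most rows, with member means of 0.89 and 0.65, against 0.06 in Glut1Tg replicates 2 and 4, and WT replicate 2 is the reddest WT column with 0.39.

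Promoter windows were read for the members because so many of them moved together from library to library. Windows of 250 bases before to 50 bases after the annotated start, from RefSeq (build GRCm38.p6), were matched to 38 members, and those of Npm1, Fbl, Rrp12, Rrs1 and Bop1 were not analysed here. CACGTG, the E-box that MYC with MAX and other helix-loop-helix factors are known to bind, occurred in the windows of 8 of 38 members (21.1%), against 11.5% of tested genes with a window and 8.09% of all genes with one. The variant CACGCG occurred in 36.8% of members, against 19.6% of tested genes. CCGGAA, the core letters of ETS sites, occurred in 44.7% of members and 31.2% of tested genes, and the GC box GGGCGG in 76.3% of members and 67.4% of tested genes. Both strands were searched, CACGTG reads the same on both, and each motif was counted regardless of overlap with another. A match describes the letters and shows no binding. The 5 windows below, all on the plus strand, hold CACGTG, shown in capitals, in genes described further on: Rrn3 (chr16:13780449-13780748) and Nop2 (chr6:125131633-125131932), with the motif before the start, and Wdr43 (chr17:71615965-71616264), Tsr1 (chr11:74897830-74898129) and Mybbp1a (chr11:72441077-72441376), with the motif after it. The others with the motif were Utp20, Ltv1 and Pes1.
Rrn3: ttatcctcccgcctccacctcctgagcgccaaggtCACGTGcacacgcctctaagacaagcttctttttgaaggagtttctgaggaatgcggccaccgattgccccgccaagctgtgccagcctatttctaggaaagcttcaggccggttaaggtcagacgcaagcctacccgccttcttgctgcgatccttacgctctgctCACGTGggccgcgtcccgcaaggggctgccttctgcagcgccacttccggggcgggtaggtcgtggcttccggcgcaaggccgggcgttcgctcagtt
Nop2: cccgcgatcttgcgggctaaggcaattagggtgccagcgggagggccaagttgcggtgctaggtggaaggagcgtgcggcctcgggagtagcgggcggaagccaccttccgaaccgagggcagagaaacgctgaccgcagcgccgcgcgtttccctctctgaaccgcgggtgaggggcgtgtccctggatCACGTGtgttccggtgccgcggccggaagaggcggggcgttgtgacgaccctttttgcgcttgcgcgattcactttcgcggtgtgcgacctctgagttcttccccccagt
Wdr43: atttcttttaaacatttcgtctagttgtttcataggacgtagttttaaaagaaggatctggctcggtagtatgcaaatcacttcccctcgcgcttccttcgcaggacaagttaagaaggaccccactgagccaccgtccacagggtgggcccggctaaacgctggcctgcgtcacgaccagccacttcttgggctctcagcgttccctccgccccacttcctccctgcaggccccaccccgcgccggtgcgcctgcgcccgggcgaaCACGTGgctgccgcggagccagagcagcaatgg
Tsr1: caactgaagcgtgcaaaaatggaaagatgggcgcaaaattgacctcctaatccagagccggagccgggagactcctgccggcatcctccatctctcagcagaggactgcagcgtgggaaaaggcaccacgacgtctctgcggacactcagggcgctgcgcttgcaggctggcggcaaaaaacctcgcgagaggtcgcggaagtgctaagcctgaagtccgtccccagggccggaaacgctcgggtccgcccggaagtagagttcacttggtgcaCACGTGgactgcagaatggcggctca
Mybbp1a: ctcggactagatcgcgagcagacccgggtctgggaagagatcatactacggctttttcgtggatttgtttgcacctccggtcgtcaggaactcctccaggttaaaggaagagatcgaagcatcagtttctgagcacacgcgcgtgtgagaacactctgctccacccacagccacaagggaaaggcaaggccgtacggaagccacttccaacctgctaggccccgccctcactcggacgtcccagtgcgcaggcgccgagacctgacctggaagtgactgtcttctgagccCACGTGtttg

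RNA polymerase I and its factors differed least between genotypes, with a median log2 fold change of 0.23 and 1 of 6 members at an unadjusted p under 0.05. That member was Polr1b, which encodes a catalytic subunit of the enzyme, at 47.0, 19.2, 32.4 and 17.4 CPM in Glut1Tg replicates 1 to 4, against 16.6, 26.7, 20.1, 15.0 and 11.97 CPM in WT replicates 1 to 5. Polr1a, the largest subunit, had 77.7, 36.2, 31.3 and 31.5 CPM in Glut1Tg replicates 1 to 4, against 32.1, 56.3, 44.7, 34.9 and 34.7 CPM in WT replicates 1 to 5. For Polr1a, Glut1Tg replicate 1 was above all WT libraries, Glut1Tg replicate 2 lay inside the WT range and Glut1Tg replicates 3 and 4 were below all WT libraries (1.17-fold, 95% confidence interval 0.794 to 1.73). Its log2 fold change was -0.24 without Glut1Tg replicate 1. Ubtf, which binds ribosomal DNA and keeps the repeats open, had 302, 273, 187 and 227 CPM in Glut1Tg replicates 1 to 4, against 232, 271, 229.8, 253 and 254 CPM in WT replicates 1 to 5. Its groups overlapped and its means were 248 ± 50.8 CPM in Glut1Tg cells (SD, n = 4) and 248 ± 17.3 CPM in WT cells (SD, n = 5). Polr1c, a subunit shared with RNA polymerase III, was at 1.19-fold (0.911 to 1.55), Polr1e, a subunit particular to RNA polymerase I, at 1.06-fold, and Rrn3, the factor that couples the enzyme to its promoter, at 1.17-fold.

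Box C/D snoRNP proteins had a median log2 fold change of 0.70, and 3 of 4 were at an unadjusted p under 0.05. Rrp9 (ENSMUSG00000041506, chromosome 9, 106475963 to 106485424, plus strand, GRCm38) encodes a protein of the box C/D particle that guides early cleavage of the precursor. It had 50.4, 37.5, 70.1 and 42.4 CPM in Glut1Tg replicates 1 to 4, against 28.8, 28.6, 37.0, 30.7 and 27.6 CPM in WT replicates 1 to 5. All 4 Glut1Tg libraries were above all 5 WT libraries, by a narrow margin between Glut1Tg replicate 2 and WT replicate 3. The fitted difference was 1.60-fold (1.17 to 2.20), the adjusted p was 0.681, and an exact two-sided permutation test of the log2 CPM gave p = 0.00794, the smallest that the splits of 9 libraries allow. Fbl, encoding the methyltransferase fibrillarin, had 139, 74.6, 143 and 71.8 CPM in Glut1Tg replicates 1 to 4, against 66.8, 92.1, 61.3, 65.4 and 62.9 CPM in WT replicates 1 to 5. Glut1Tg replicates 1 and 3 were the highest, and WT replicate 2 was above the other Glut1Tg libraries (1.65-fold, 1.13 to 2.40). Nop56, a scaffold of the particle, had 262, 116, 275 and 116 CPM in Glut1Tg replicates 1 to 4, against 109, 163, 119, 100.5 and 87.5 CPM in WT replicates 1 to 5. Nop58, the partner scaffold, had 197, 101, 190.2 and 107 CPM in Glut1Tg replicates 1 to 4, against 109, 136, 99.0, 74.4 and 63.0 CPM in WT replicates 1 to 5. Both scaffolds were highest in Glut1Tg replicates 1 and 3, and the groups overlapped (Nop56 1.75-fold, 1.07 to 2.85, and Nop58 1.57-fold, 0.993 to 2.49).

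Box H/ACA snoRNP proteins had the highest median of the role groups, 0.81, with 3 of 4 at an unadjusted p under 0.05. Dkc1, the pseudouridine synthase dyskerin, which also binds telomerase RNA, had 132, 40.5, 76.2 and 42.3 CPM in Glut1Tg replicates 1 to 4, against 42.9, 87.2, 36.5, 47.4 and 41.2 CPM in WT replicates 1 to 5. Nhp2, a core protein of the same particle, had 96.9, 33.5, 74.9 and 40.2 CPM in Glut1Tg replicates 1 to 4, against 29.3, 59.3, 32.3, 34.5 and 31.3 CPM in WT replicates 1 to 5. Gar1, another core protein, had 54.2, 18.2, 43.1 and 17.0 CPM in Glut1Tg replicates 1 to 4, against 15.3, 33.7, 15.8, 17.6 and 15.4 CPM in WT replicates 1 to 5. Within each genotype these genes split the libraries alike: Glut1Tg replicates 1 and 3 and WT replicate 2 were high, and the rest sat in a low band in which Glut1Tg and WT overlapped. The fitted differences were 1.65-fold (1.04 to 2.61) for Dkc1, 1.86-fold (1.18 to 2.93) for Nhp2 and 1.95-fold (1.13 to 3.35) for Gar1. Nop10, the smallest protein of the particle, had 50.7, 28.3, 55.8 and 29.0 CPM in Glut1Tg replicates 1 to 4, against 25.2, 44.6, 26.3, 41.1 and 33.4 CPM in WT replicates 1 to 5, with the groups overlapping (1.39-fold, 0.968 to 2.00).

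Small subunit factors had a median log2 fold change of 0.42, and 4 of 12 were at an unadjusted p under 0.05 (Noc4l, Bysl, Tsr1 and Nob1). Bysl (ENSMUSG00000023988, chromosome 17, 47599331 to 47611492, minus strand) encodes bystin, needed for small subunit maturation, and had the largest fold change of all members. It had 54.3, 10.5, 35.4 and 13.4 CPM in Glut1Tg replicates 1 to 4, against 11.7, 33.0, 11.97, 13.8 and 13.4 CPM in WT replicates 1 to 5. The fitted 2.03-fold difference (1.05 to 3.92) came with Glut1Tg replicates 1 and 3 high, Glut1Tg replicate 2 below all WT libraries, and WT replicate 2 close to Glut1Tg replicate 3. Noc4l, a nucleolar complex protein of small subunit assembly, had 141, 53.8, 87.6 and 54.0 CPM in Glut1Tg replicates 1 to 4, against 51.3, 85.5, 56.3, 52.1 and 54.9 CPM in WT replicates 1 to 5 (1.54-fold, 1.05 to 2.26, groups overlapping). Nob1, the nuclease that makes the final end of small subunit RNA, was at 51.8 to 81.3 CPM in the Glut1Tg libraries and 44.1 to 53.1 CPM in the WT libraries. Only WT replicate 4 reached into the Glut1Tg range of Nob1 (1.29-fold, exact two-sided permutation p = 0.0159).

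Tsr1, a factor of late small subunit assembly, had 55.8, 57.9, 89.0 and 64.8 CPM in Glut1Tg replicates 1 to 4, against 58.2, 39.2, 53.8, 21.8 and 23.2 CPM in WT replicates 1 to 5 (1.51-fold, 1.05 to 2.17). WT replicate 1 was above Glut1Tg replicates 1 and 2, so the groups overlapped. Its level is uncertain, because 32.3% of its exon bases are shared with Srr on the other strand and no source used here gives the strand setting of the counting. Wdr43, a protein of the early processing complex, had 124, 158, 194 and 147 CPM in Glut1Tg replicates 1 to 4, against 145, 101, 145, 82.2 and 69.0 CPM in WT replicates 1 to 5, with an overlap at Glut1Tg replicate 1 (1.26-fold, 0.988 to 1.62). The remaining 7 small subunit factors (Nop14, Wdr75, Rrp12, Utp20, Heatr1, Ddx10 and Ltv1) had fold changes of 1.08 (the helicase Ddx10) to 1.46 (Utp20), each with an interval that reached below 1.

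Large subunit factors had a median log2 fold change of 0.54, with 7 of 11 at an unadjusted p under 0.05. Rrs1 (ENSMUSG00000061024, chromosome 1, 9545408 to 9547455, plus strand), which helps to place the small RNA of the large subunit, had the lowest unadjusted p of all members (0.00512). It had 51.3, 45.3, 88.1 and 44.6 CPM in Glut1Tg replicates 1 to 4, against 37.1, 31.6, 30.4, 28.1 and 24.3 CPM in WT replicates 1 to 5. All Glut1Tg libraries were above all WT libraries (1.79-fold, 1.25 to 2.56, exact two-sided permutation p = 0.00794). Nip7, whose yeast counterpart acts in large subunit assembly, had 45.4, 45.1, 78.4 and 44.6 CPM in Glut1Tg replicates 1 to 4, against 42.5, 32.8, 35.2, 34.7 and 25.0 CPM in WT replicates 1 to 5. Here too the genotypes did not overlap, with Glut1Tg replicate 3 far above the other libraries (1.45-fold, 1.05 to 2.02, exact two-sided permutation p = 0.0159). Rrs1, Rrp9 and Nip7 were the only 3 of 43 members (6.98%, against 1.01% of all genes) with all Glut1Tg above all WT libraries, and no member had the opposite order. The exact test gave p under 0.05 for 4 members, these and Nob1, with no adjustment over the 43 members, and it takes no account of mouse group. It was run on members only, so the share of all genes at such a p is not known.

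Rrp1b, a nucleolar protein that brings protein phosphatase to the nucleolus, had 91.8, 39.8, 95.6 and 52.2 CPM in Glut1Tg replicates 1 to 4, against 32.8, 66.7, 35.7, 37.2 and 43.4 CPM in WT replicates 1 to 5 (1.84-fold, 1.19 to 2.86). WT replicate 2 was above Glut1Tg replicates 2 and 4. Noc2l, whose yeast counterpart acts in the transport of large subunit precursors, had 183, 102, 139.5 and 100.5 CPM in Glut1Tg replicates 1 to 4, against 87.7, 116, 98.2, 91.1 and 85.5 CPM in WT replicates 1 to 5 (1.45-fold, 1.097 to 1.92). Only WT replicate 2 reached into the Glut1Tg range of Noc2l, whose exons share 20.9% of their bases with Samd11. Nop2, a methyltransferase of large subunit RNA, had 100.5, 32.8, 57.1 and 30.4 CPM in Glut1Tg replicates 1 to 4, against 30.4, 65.4, 32.5, 36.8 and 35.1 CPM in WT replicates 1 to 5, with Glut1Tg replicate 4 at the bottom of the WT range (1.59-fold, 1.03 to 2.45). Pes1, Bop1 and Wdr12 form 1 complex of large subunit assembly, and their fold changes were 1.26 (0.999 to 1.58), 1.402 (1.02 to 1.92) and 1.24 (0.961 to 1.60). Pes1 had 125, 79.5, 99.96 and 76.8 CPM in Glut1Tg replicates 1 to 4, against 74.3, 98.1, 76.2, 83.0 and 73.6 CPM in WT replicates 1 to 5, and its groups overlapped. Mrto4 was at 1.49-fold (1.01 to 2.17), Nop16 at 1.77-fold (0.978 to 3.22) and Noc3l at 1.14-fold (0.826 to 1.58).

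General nucleolar proteins had a median log2 fold change of 0.48, with 3 of 6 at an unadjusted p under 0.05. Ncl had 1265, 938, 1064 and 855 CPM in Glut1Tg replicates 1 to 4, against 846, 975, 843, 726 and 651 CPM in WT replicates 1 to 5. Npm1 had 1151, 829, 1263 and 798 CPM in Glut1Tg replicates 1 to 4, against 838, 927, 731, 768 and 642 CPM in WT replicates 1 to 5. For both, WT replicate 2 was above Glut1Tg replicates 2 and 4, so the groups overlapped (Ncl 1.298-fold, 0.992 to 1.70, and Npm1 1.32-fold, 0.980 to 1.78). Nolc1, a chaperone of snoRNPs, had 200.0, 90.3, 149 and 87.4 CPM in Glut1Tg replicates 1 to 4, against 77.7, 127, 84.8, 69.7 and 64.7 CPM in WT replicates 1 to 5 (1.66-fold, 1.09 to 2.54, groups overlapping). Ddx21, an RNA helicase, had 328, 155, 185 and 175 CPM in Glut1Tg replicates 1 to 4, against 162, 262, 159.7, 152 and 151 CPM in WT replicates 1 to 5 (1.297-fold, 0.931 to 1.81). Glut1Tg replicate 1 and WT replicate 2 stood above all others. Gnl3, encoding nucleostemin, a nucleolar GTP-binding protein of dividing cells, had 85.0, 95.1, 184 and 105 CPM in Glut1Tg replicates 1 to 4, against 100.5, 50.7, 98.7, 45.0 and 39.5 CPM in WT replicates 1 to 5 (1.50-fold, 1.06 to 2.11, groups overlapping). Mybbp1a, a nucleolar protein that binds RNA polymerase I, was at 1.48-fold (1.01 to 2.17).

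**Figure D3:**
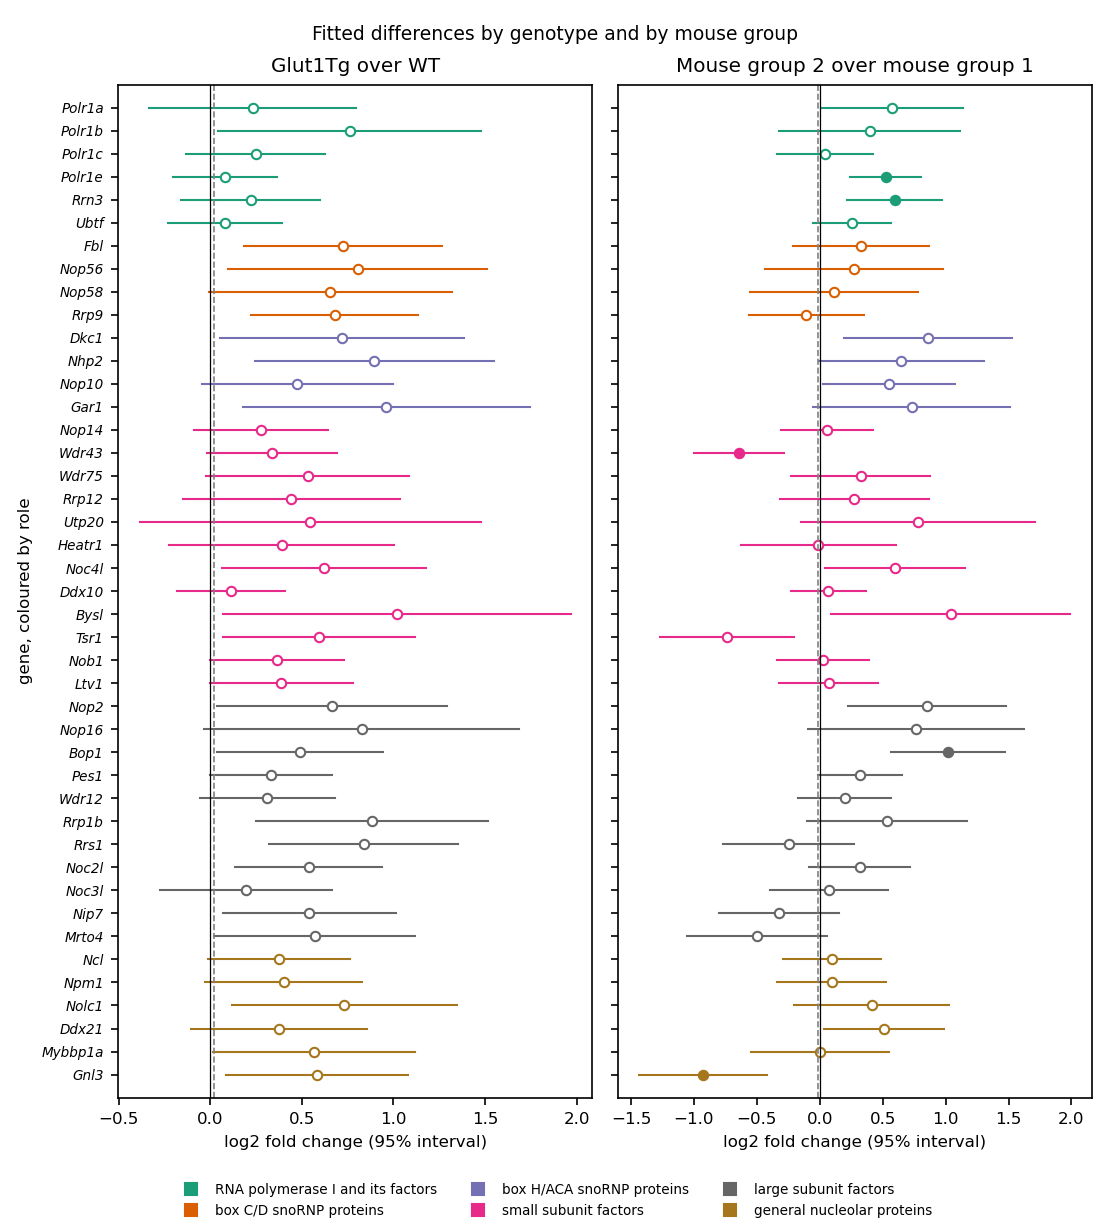
Fitted log2 fold change of each member with its 95% interval, coloured by role, for Glut1Tg over WT (left) and mouse group 2 over mouse group 1 (right), with filled points for an adjusted p under 0.05 and a dashed line at the median of all genes. All 43 genotype points lie above 0 and 0 are filled, while 35 mouse group points lie above 0 and 5 are filled.

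The role groups followed the same libraries to different degrees. Relative to the WT mean, the box H/ACA proteins averaged 1.25, -0.16, 0.92 and -0.09 log2 units in Glut1Tg replicates 1 to 4, with WT replicate 2 at 0.71. Box C/D proteins averaged 1.01, 0.14, 1.14 and 0.19 in Glut1Tg replicates 1 to 4, with WT replicate 2 at 0.35. RNA polymerase I and its factors averaged 0.70, -0.07, 0.05 and -0.17 in Glut1Tg replicates 1 to 4, with WT replicate 2 at 0.33. The polymerase group thus averaged high in Glut1Tg replicate 1. Its average was near the WT mean in Glut1Tg replicate 3, where all the other role groups averaged 0.60 or more. Its members split in Glut1Tg replicate 3, with Polr1b (0.90) and Polr1c (0.57) above the WT mean. Ubtf (-0.40), Polr1a (-0.34), Rrn3 (-0.31) and Polr1e (-0.14) were below it. At the low end, WT replicate 5 had the lowest level of the 9 libraries in 24 members. The share of all genes lowest in that library was not counted. The members averaged -0.26 there, against -0.0047 over all genes tested.

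**Figure D4:**
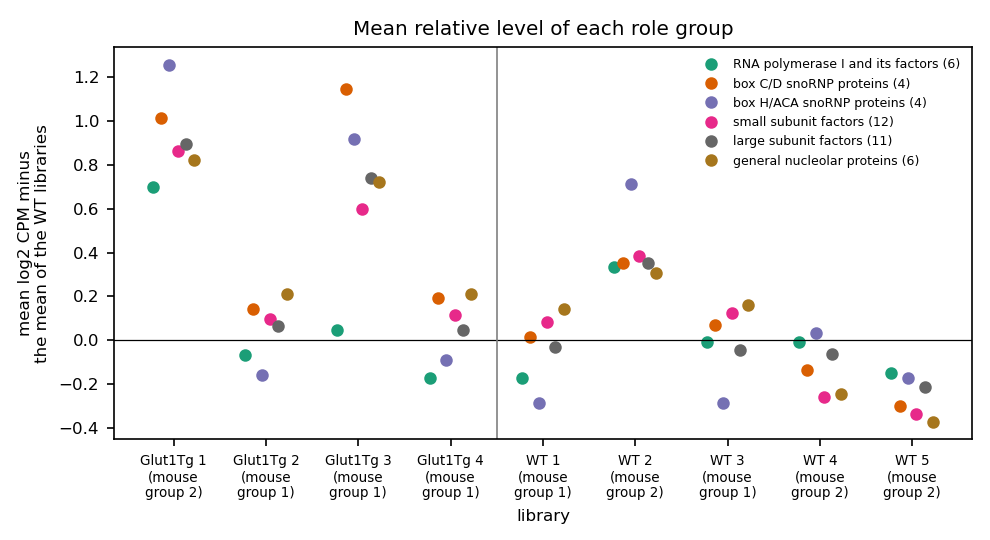
Mean log2 CPM of each role group minus its mean over the WT libraries, by library, with Glut1Tg left of WT and the number of genes of each group in the legend. In Glut1Tg replicate 3 the RNA polymerase I group is at 0.05 while box C/D proteins are at 1.14, and in WT replicate 2 box H/ACA proteins are at 0.71.

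Levels of other cell programmes moved with these libraries. The sum of 12 proliferation markers was 6746 CPM in Glut1Tg replicate 1 and 1336 to 2136 CPM in the other Glut1Tg libraries, against 6273 CPM in WT replicate 2 and 1732 to 2632 CPM in the other WT libraries. Of the 12 markers, 12 had a positive genotype fold change and 0 had an unadjusted p under 0.05. Between the libraries of the highest proliferation sum, Glut1Tg replicate 1 was above WT replicate 2 in 43 of 43 members (51.6% of all genes), with ratios of 1.11 to 1.76 and a median of 1.43. This sets single libraries of the same mouse group against each other and has no replicate check. Of the 12 proliferation markers, 11 (91.7%) were also higher in Glut1Tg replicate 1 than in WT replicate 2. Mki67 was at 1652 and 1621 CPM in these libraries, Mcm5 at 420 and 319 CPM, and Top2a at 1556 and 1752 CPM. Of 121 other genes of the wider pathway, described further on, 112 (92.6%) were higher in Glut1Tg replicate 1.

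Glut1Tg replicate 3 carried more mast cell, basophil and myeloid transcripts than any other library. The sum of 9 mast cell and basophil markers was 121, 900, 5057 and 587 CPM in Glut1Tg replicates 1 to 4, against 558, 137, 1110, 2287 and 708 CPM in WT replicates 1 to 5. That of 10 myeloid markers was 6.09, 23.7, 423 and 29.2 CPM in Glut1Tg replicates 1 to 4, against 21.3, 12.2, 26.6, 33.0 and 25.7 CPM in WT replicates 1 to 5. Tpsb2 of mast cells, low throughout, was at 0 in Glut1Tg replicate 1 and WT replicate 2 and at 4.91 CPM in Glut1Tg replicate 3. In Glut1Tg replicate 1 and WT replicate 2, Mcpt4 was at 0.038 and 0 CPM. There Cpa3 was at 3.56 and 2.48 CPM, Mcpt2 at 14.9 and 6.09 CPM and Kit at 86.8 and 124 CPM. No listed marker was at 0 in all libraries. Myc had 243, 74.5, 412 and 107 CPM in Glut1Tg replicates 1 to 4, against 84.3, 172, 83.4, 116 and 243 CPM in WT replicates 1 to 5. Relative to the WT mean, the members averaged 0.89, 0.062, 0.65 and 0.060 log2 units in Glut1Tg replicates 1 to 4. In WT replicates 1 to 5 they averaged -0.014, 0.39, 0.025, -0.13 and -0.26. The part of these programmes in the members' levels was not tested.

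Within mouse group 1 alone (3 Glut1Tg and 2 WT libraries), the median log2 fold change of Glut1Tg over WT was 0.29, 35 of 43 members were positive and 0 had an unadjusted p under 0.05. All 3 Glut1Tg libraries were above both WT libraries in 14 members (32.6%, against 11.9% of all genes). In mouse group 2, which holds Glut1Tg replicate 1 as its single transgenic library, the median was 0.88 and all 43 were positive, a value of 1 library against 3 WT libraries with no replicate check. The difference between the mouse groups in the genotype effect was tested as an interaction, and 0 members were called (background 0%, lowest adjusted p 0.741, edgeR). At an unadjusted p under 0.05 it held 4 members, Polr1a, Rrp12, Bop1 and Noc3l, against 5.3% of all genes. The interaction was positive in 41 members, against 50.4% of all genes. Its sign and its p-values rest on Glut1Tg replicate 1, without which no interaction can be fitted, so an effect of mouse group and of that library cannot be told apart.

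**Figure D5:**
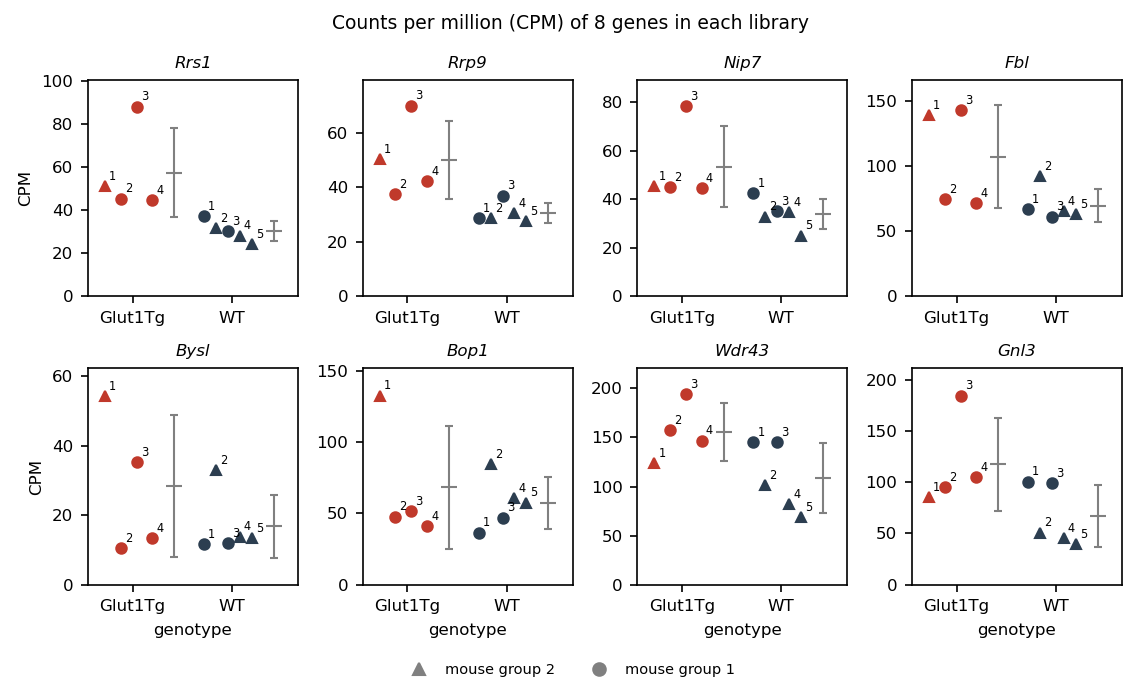
CPM of 8 members in each library, with replicate numbers beside the points, triangles for mouse group 2, circles for mouse group 1, and a grey bar for the mean and SD of 4 Glut1Tg or 5 WT libraries. In Rrs1, Rrp9 and Nip7 the Glut1Tg libraries lie above all WT libraries, in Bysl Glut1Tg replicate 1 at 54.3 and WT replicate 2 at 33.0 stand out, and in Wdr43 and Gnl3 the circles lie above the triangles within each genotype.

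By mouse group, 5 members were called in the fit with genotype as a term (11.6% of members, against 24.1% of all genes). Glut1Tg replicate 1 and WT replicate 2, apart on the first principal component, are both in mouse group 2. Bop1, Polr1e and Rrn3 rose in mouse group 2 (6.98% of members, against 13.1% of all genes), and Wdr43 and Gnl3 fell (4.65%, against 11%). The share of members called was thus below that of all genes. These 5 were also the only members whose libraries did not overlap between the mouse groups. Separation with mouse group 2 higher was found in 6.98% of members, against 10.5% of all genes. With mouse group 2 lower it was found in 4.65% of members, against 11.4% of all genes. Such separation was thus rarer among members than among all genes. The median log2 fold change of mouse group 2 over mouse group 1 was 0.28, and 35 members were positive. Without Glut1Tg replicate 1 these values were 0.045 and 23, within WT 0.051 and 24, and without Glut1Tg replicate 1 and WT replicate 2 the median was -0.13 with 17 positive. At an unadjusted p under 0.05 the mouse group test held 13 members, against 39.4% of all genes.

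Bop1 (ENSMUSG00000022557, chromosome 15, 76452989 to 76477277, minus strand) had 133, 84.3, 60.9 and 57.6 CPM in the mouse group 2 libraries (Glut1Tg replicate 1 and WT replicates 2, 4 and 5), against 47.6, 51.5, 40.8, 36.4 and 46.9 CPM in the mouse group 1 libraries (Glut1Tg replicates 2, 3 and 4 and WT replicates 1 and 3). Every mouse group 2 library was above every mouse group 1 library, a 2.03-fold difference (1.48 to 2.78, adjusted p = 0.00912). Polr1e (chromosome 4, 45018583 to 45036565, plus strand) had 30.6, 26.5, 26.3 and 25.6 CPM in mouse group 2, against 17.5, 21.1, 19.1, 18.8 and 20.0 CPM in mouse group 1, in the same order of libraries. Rrn3 (chromosome 16, 13780708 to 13814839, plus strand), whose promoter window holds 2 copies of CACGTG, had 68.6, 54.3, 43.6 and 36.9 CPM in mouse group 2, against 35.5, 32.7, 35.9, 35.1 and 36.0 CPM in mouse group 1. The groups did not overlap for either gene (Polr1e 1.44-fold, adjusted p = 0.0182, and Rrn3 1.51-fold, adjusted p = 0.0327), though the lowest mouse group 2 library of Rrn3 was within 1 CPM of mouse group 1. Proliferation markers moved the same way, with 7 of 12 called higher in mouse group 2. Their sum was 6746, 6273, 1732 and 2632 CPM in mouse group 2, against 1336, 2136, 2024, 1789 and 1753 CPM in mouse group 1. The part of proliferation in the rise of these members was not tested, and without Glut1Tg replicate 1 and WT replicate 2, where 561 genes were called in all against 3576, none of these members was called. The log2 fold changes were then 0.43 for Polr1e (0.52 with all libraries, adjusted p = 0.172), 0.19 for Rrn3 (0.59 with all libraries, adjusted p = 0.525) and 0.52 for Bop1 (1.02 with all libraries, adjusted p = 0.146).

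Gnl3 (ENSMUSG00000042354, chromosome 14, 31012433 to 31019152, minus strand) had 85.0, 50.7, 45.0 and 39.5 CPM in mouse group 2, against 95.1, 184, 105, 100.5 and 98.7 CPM in mouse group 1. Wdr43 (chromosome 17, 71615895 to 71659031, plus strand) had 124, 101, 82.2 and 69.0 CPM in mouse group 2, against 158, 194, 147, 145 and 145 CPM in mouse group 1. Neither gene overlapped between the mouse groups, as was also found, with mouse group 2 lower, for 11.4% of all genes. The differences were 0.527-fold for Gnl3 (0.370 to 0.749, adjusted p = 0.0195) and 0.640-fold for Wdr43 (0.499 to 0.821, adjusted p = 0.0205). Tsr1 had 55.8, 39.2, 21.8 and 23.2 CPM in mouse group 2, against 57.9, 89.0, 64.8, 58.2 and 53.8 CPM in mouse group 1, just outside the threshold (0.601-fold, adjusted p = 0.0503). The calls were sensitive to single libraries, and a fit with fewer libraries also calls fewer genes (651 in all without Glut1Tg replicate 1). Bop1 lost its call without Glut1Tg replicate 1, at a log2 fold change of 0.69 (adjusted p = 0.105). Polr1e lost it without Glut1Tg replicate 1, at 0.43 (0.174), or WT replicate 1 (0.51, 0.0581), and Gnl3 without WT replicate 1 (-0.87, 0.0552) or WT replicate 3 (-0.88, 0.0622), against -0.93 with all libraries. Wdr43 missed the threshold without Glut1Tg replicate 1 at a larger difference (log2 fold change -0.79, against -0.64 with all libraries, adjusted p = 0.0546), and without WT replicate 1 (-0.62, 0.0570) or WT replicate 3 (-0.61, 0.0682). Gnl3 kept its call without Glut1Tg replicate 1 (-1.15, 0.0493). With WT replicate 2 left out as well, both differences were larger than with all libraries: -0.93 for Wdr43 (0.0388, called) and -1.22 for Gnl3 (0.0691, not called). Rrn3 kept it only without Glut1Tg replicate 3, WT replicate 4 or WT replicate 5, and without Glut1Tg replicate 1 its log2 fold change was 0.33 (adjusted p = 0.337). Without Glut1Tg replicate 3 the number of members called was 13, of which 11 were higher and 2 lower in mouse group 2. Of all 15021 genes tested in that fit, 2516 were called higher and 2059 lower.

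Some members carry snoRNA genes inside their own introns or transcripts, so that the host gene serves the same pathway through its RNA. In the GENCODE annotation of GRCm38, 21 snoRNA genes lay on the same strand inside 7 members: Nop56, Nop58, Dkc1, Wdr43, Tsr1, Ncl and Gnl3. Both members called lower in mouse group 2 were among them, 2 of 7 hosts (28.6%), against 0 of 36 members without a snoRNA. Of the other protein-coding hosts, 14 of 196 were called lower in mouse group 2 (7.14%) and 27 higher. Of the other protein-coding genes without a snoRNA, 1354 of 12158 were called lower (11.1%) and 1819 higher. The share of 28.6% rests on Wdr43 and Gnl3 alone, each of which lost its call when some single libraries were left out. The median genotype log2 fold change was 0.59 in the 7 host members and 0.51 in the 36 others. The snoRNAs themselves were not analysed here.

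The wider pathway was read from 5 further lists of 121 genes, all of them tested. In Glut1Tg cells 111 of the 121 had a positive log2 fold change (52.4% of all genes), with a median of 0.29. At an unadjusted p under 0.05 there were 34 above WT and 0 below (4.5% and 1.5% of all genes), and 0 were called. Without Glut1Tg replicate 1 these counts were 90 positive and 3 above WT, with a median of 0.096, and without Glut1Tg replicate 3 they were 112 and 18. Large subunit assembly genes had 45 of 49 positive and 20 at an unadjusted p under 0.05, among them Rrp15 at 26.9 ± 2.37 CPM in Glut1Tg cells (SD, n = 4) and 14.8 ± 5.63 CPM in WT cells (SD, n = 5). Small subunit processing genes had 42 of 43 positive and 4 at an unadjusted p under 0.05. The exosome and exonucleases had 11 of 12 positive with 6, and snoRNP assembly genes 7 of 7 with 4. The other RNA polymerase I genes had 6 of 10 positive and 0 at an unadjusted p under 0.05, beside 1 of 6 among the polymerase members. Without Glut1Tg replicate 1, large subunit assembly genes had 33 of 49 positive and 2 at an unadjusted p under 0.05. Small subunit processing genes then had 34 of 43 and 1, and the exosome and exonucleases 10 of 12 and 0. For snoRNP assembly genes these counts were 7 of 7 and 0, and for the other RNA polymerase I genes 6 of 10 and 0. Rrp15 was then at a log2 fold change of 0.37, against 0.75 with all libraries. By mouse group, 16 of the 121 rose and 21 fell in mouse group 2, beside 13.1% and 11% of all genes, and without Glut1Tg replicate 1 the counts were 2 and 12. Ruvbl2, a helicase of snoRNP assembly, rose with a log2 fold change of 1.46 (adjusted p = 0.00269), at means of 65.9 CPM in mouse group 2 and 27.1 CPM in mouse group 1. Twistnb, another subunit of RNA polymerase I, fell by 1.06 on the log2 scale (adjusted p = 0.00213), with means of 26.6 CPM in mouse group 2 and 55.5 CPM in mouse group 1. Tcof1, a cofactor of ribosomal DNA transcription, rose with a log2 fold change of 0.86 (adjusted p = 0.00847), with means of 193 CPM in mouse group 2 and 110.2 CPM in mouse group 1. Without Glut1Tg replicate 1 the log2 fold changes were 1.305 for Ruvbl2 (adjusted p = 0.0359), -1.20 for Twistnb (0.0207) and 0.65 for Tcof1, which then missed the threshold (0.112).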

How the data were processed

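Induced Treg RNA was sequenced from 4 Glut1Tg and 5 WT samples with a stranded mRNA kit and 75 base paired reads, per the labels' protocols. Bcl2fastq, TopHat2, featureCounts, DESeq2 and mm10 are named in the submitters' processing notes, whose versions and strand options no source used here states. The authors deposited raw counts per gene, not normalized. They also deposited a table of log2 values, whose making no source used here describes and which served for 1 alternative.

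From the counts, edgeR 4.0.16 (R 4.3.3) was run with filterByExpr by genotype, TMM scaling and its quasi-likelihood test, the terms being mouse group and genotype, and p-values adjusted by Benjamini-Hochberg over 14817 genes (threshold 0.05). Single values were also tested by exact permutation. Intervals are 95%, and their median half-width for members was 1.44-fold. Plotted log2 CPM used a prior count of 2. Coordinates and exon lengths came from GENCODE on GRCm38. The edgeR steps were tested on simulated data.

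The members, lists and tests were chosen with earlier results of these data known. Values per library were given for members among the 12 smallest p of either comparison and the pair with the highest CPM of each role, and for Polr1b, chosen after its values were seen. Alternatives were other scaling, no filter, DESeq2 1.42.0, limma 3.58.1 (voom and log2 table), other model terms, a replicate block, single mouse groups and left-out libraries.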

Additional observations from a re-analysis of the deposited data

Results flagged for a closer look

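In 16 of 86 groups examined (each member in each genotype), 1 library lay far from the rest of its group, with a gap over the range that chance gives in about 1 of 20 groups. Glut1Tg replicate 1 stood alone at the top of the Glut1Tg group in 5 members, with the next Glut1Tg library far below: Polr1a (77.7 CPM), Rrn3 (68.6 CPM), Utp20 (68.5 CPM), Heatr1 (100.3 CPM) and Bop1 (133 CPM, next 51.5 CPM). Glut1Tg replicate 3 stood alone at the top in Rrs1 (88.1 CPM, next 51.3 CPM) and Nip7 (78.4 CPM, next 45.4 CPM), which are 2 of the 3 members with all Glut1Tg libraries above all WT libraries. In the WT group, WT replicate 2 stood alone at the top in 9 members. Of snoRNP proteins these were Fbl (92.1 CPM), Dkc1 (87.2 CPM), Nhp2 (59.3 CPM) and Gar1 (33.7 CPM, next 17.6 CPM). Of subunit factors and general nucleolar proteins they were Noc4l (85.5 CPM), Bysl (33.0 CPM, next 13.8 CPM), Nop2 (65.4 CPM), Nop16 (29.9 CPM) and Ddx21 (262 CPM, next 162 CPM). The flags of 1 library are not independent of each other, since its members are read from the same cells.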

How the results depend on the processing

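Genotype called 0 members under every alternative run. RLE scaling, no filter, DESeq2, limma-voom and limma on the log2 table kept 43 members positive. All genes called by genotype were 1, against 2 with no filter, 7 with DESeq2, 0 within mouse group 1, 0 within mouse group 2, 0 without Glut1Tg replicate 1 and WT replicate 2, and 9 without Glut1Tg replicates 1 and 3 (chosen after seeing the data). Members at an unadjusted p under 0.05 were 21, against 10 on the log2 table, 11 with no mouse group term, 0 within mouse group 1, 2 without Glut1Tg replicate 1 and WT replicate 2 and 0 without Glut1Tg replicates 1 and 3. The median log2 fold change was 0.88 within mouse group 2 and 0.029 without Glut1Tg replicates 1 and 3. Leaving out 1 library at a time gave 1 to 2 genes called, 1 to 30 members at an unadjusted p under 0.05, 34 to 43 positive members and medians of 0.26 to 0.63.

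Mouse group called 5 members, against 8 with DESeq2 (which called 4791 genes in all), 1 within WT and 3 without Glut1Tg replicate 1 and WT replicate 2. Without those libraries 17 members were positive (median -0.13) and 561 genes were called in all, against 3576, with 635 within WT. Members at an unadjusted p under 0.05 were 7 with no genotype term and 7 within WT. Leaving out 1 library at a time gave 1 to 13 members called, 6 to 18 at an unadjusted p under 0.05, 23 to 36 positive, medians of 0.045 to 0.39 and 651 to 4575 genes called. The causes were not tested.

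Among members with the smallest genotype p or the highest CPM of their role, the genotype sign turned for Ubtf, Polr1a and Nop58. Ubtf was at -0.0024 with no mouse group term and -0.016 within mouse group 1. Over single left-out libraries Ubtf ran from -0.036 (without Glut1Tg replicate 1) to 0.15. It was at -0.036 when WT replicate 2 was left out as well. Polr1a was at -0.22 within mouse group 1 and ran from -0.24 (without Glut1Tg replicate 1) to 0.46 over single left-out libraries. It was at -0.24 when WT replicate 2 was left out as well, and at -0.18 without Glut1Tg replicates 1 and 3. Nop58 was at -0.0032 without Glut1Tg replicates 1 and 3. Polr1e and Rrn3, given per library by mouse group, turned too, at -0.044 and -0.063 without Glut1Tg replicate 1. Among members with the smallest mouse group p, the mouse group sign turned for Ddx21 (-0.073 without Glut1Tg replicate 1 and WT replicate 2). A replicate block with mouse group gave 19 members at an unadjusted p under 0.05, 43 positive, a median of 0.49 and 0 genes called. The replicate numbers do not pair the samples: deviations of same-numbered samples correlated at -0.51, -0.59, 0.23 and -0.21 across genes, and numbers 1, 2 and 4 fall in different mouse groups. The 95% intervals of the members' genotype folds reached 1.22 to 1.93-fold either way (median 1.44), which limits the differences that these libraries can show.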

Other observations

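RNA polymerase III, which makes transfer RNA and the small RNA of the large subunit, was read from 12 genes. In Glut1Tg cells 8 of the 12 had a positive log2 fold change, with a median of 0.14, and 1 had an unadjusted p under 0.05 (edgeR, 0 called). That gene was Polr3d, a subunit of the enzyme, at 23.4 ± 4.47 CPM in Glut1Tg cells (SD, n = 4) and 14.7 ± 6.10 CPM in WT cells (SD, n = 5). Without Glut1Tg replicate 1, 6 of the 12 were positive, with a median of -0.0019, and 0 had an unadjusted p under 0.05. The genotype log2 fold change of Polr3d was then 0.22, against 0.45 with all libraries. By mouse group, 2 of the 12 rose and 4 fell in mouse group 2, beside 13.1% and 11% of all genes. Polr3d fell by 0.86 on the log2 scale (adjusted p = 0.00617), and Maf1, a repressor of the enzyme, fell by 1.21 (adjusted p = 0.0122), with means of 146 CPM in mouse group 2 and 299 CPM in mouse group 1. Without Glut1Tg replicate 1 Polr3d fell by 1.06 (adjusted p = 0.0241), and Maf1 missed the threshold at -0.92 (adjusted p = 0.112).

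Of 10 tested genes of the MYC family, 5 had a positive genotype log2 fold change and 0 had an unadjusted p under 0.05 (edgeR, 0 called). Max, the partner of MYC, was at 220.3 ± 30.6 CPM in Glut1Tg cells (SD, n = 4) and 179 ± 11.1 CPM in WT cells (SD, n = 5). By mouse group, 2 of the 10 rose and 3 fell in mouse group 2, beside 13.1% and 11% of all genes. Genes encoding antagonists of MYC went both ways. Mnt, Mxd1 and Mxi1 fell, with log2 fold changes of -1.63 (adjusted p = 0.00120), -1.02 (adjusted p = 0.00584) and -0.59 (adjusted p = 0.0127). Mxd3 rose, with a log2 fold change of 1.96 (adjusted p = 0.00662) and means of 44.7 CPM in mouse group 2 and 12.6 CPM in mouse group 1. Mlx, a partner of related factors, rose by 1.398 (adjusted p = 0.00199). Mnt had means of 49.4 CPM in mouse group 2 and 149.8 CPM in mouse group 1. Without Glut1Tg replicate 1, Mnt, Mxd1 and Mlx passed the threshold (adjusted p = 0.0163, 0.0427 and 0.0280), while Mxd3 (log2 fold change 1.74, adjusted p = 0.0860) and Mxi1 (-0.58, adjusted p = 0.0997) missed it.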
